A study of Mus musculus with 4 samples.

Results

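The genes described here encode the receptors for type I and type II interferon and the proteins that carry the receptor signal to the nucleus. They are 9 of the 24312 genes in the deposited table, taken by name: the receptor chains Ifnar1, Ifnar2, Ifngr1 and Ifngr2, the kinases Jak1, Jak2 and Tyk2, and the transcription factors Stat2 and Irf9. The 9 were chosen with earlier results of these data known. All 9 passed the filter on low counts. The libraries are poly(A) RNA from CD8 T cells of P14 mice on a C57BL/6 background, whose transgenic receptor sees gp33, a peptide of a mouse virus, lymphocytic choriomeningitis virus. The BATF group (2 libraries) carried the retrovirus MIG, an MSCV vector with IRES-GFP, with BATF inserted, and the MIG group (2 libraries) carried the same vector without an insert. Both groups had gp33 at 100 ng/ml for 1 day before and a further 1 day after transduction, then 2 days of expansion in IL-2 at 10 ng/ml, a sort for CD8+ GFP+ cells and 2 days in IL-2 at 1 ng/ml. No interferon is listed among the additions to either culture, and the labels state neither the age nor the number of the mice. The 2 libraries of each group are called biological replicates by the submitters, with no word on separate mice, so the p-values here speak only of the spread from library to library, part of which may be technical.

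Type I interferons bind a receptor made of IFNAR1, which holds the kinase TYK2, and IFNAR2, which holds JAK1. The kinases phosphorylate STAT proteins, of which STAT2 joins IRF9 in the complex ISGF3, which switches on genes with an interferon-stimulated response element (ISRE). Interferon gamma binds IFNGR1, which holds JAK1, and brings in IFNGR2, which holds JAK2, and the signal ends at genes with gamma-activated sites (GAS). In T cells the amount of IFNGR2 is known as a point at which sensitivity to interferon gamma is set.

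Ifnar2, Ifnar1 and Ifngr2 stand close together on chromosome 16, and their promoters are shown because these 3 receptor genes were all lower with BATF in both libraries. The promoters of Irf9 and Jak1, also lower in both libraries, are not shown. That of Stat2, whose groups overlapped, is shown as well, and it alone of the 9 genes held the ISRE letters. Each window runs from 250 bases before the transcription start to 10 bases after it, 5′ to 3′ on the gene's strand, from RefSeq on GRCm38.p6, a later build than the mm9 of the deposited table. The windows are chr16:91372533-91372792, chr16:91484965-91485224, chr16:91546809-91547068 and chr10:128270248-128270507, all on the plus strand, and capitals mark the motif matches named after them.
Ifnar2: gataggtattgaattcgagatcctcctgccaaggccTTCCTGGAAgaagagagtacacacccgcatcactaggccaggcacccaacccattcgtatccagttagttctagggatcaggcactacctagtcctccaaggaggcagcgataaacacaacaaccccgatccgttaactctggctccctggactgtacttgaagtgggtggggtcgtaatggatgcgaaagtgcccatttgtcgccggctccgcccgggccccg
Ifnar1: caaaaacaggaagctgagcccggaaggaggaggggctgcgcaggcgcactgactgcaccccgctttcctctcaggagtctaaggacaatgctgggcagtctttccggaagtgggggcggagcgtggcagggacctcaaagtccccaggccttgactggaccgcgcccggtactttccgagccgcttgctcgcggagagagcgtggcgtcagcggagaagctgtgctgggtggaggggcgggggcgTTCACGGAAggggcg
Ifngr2: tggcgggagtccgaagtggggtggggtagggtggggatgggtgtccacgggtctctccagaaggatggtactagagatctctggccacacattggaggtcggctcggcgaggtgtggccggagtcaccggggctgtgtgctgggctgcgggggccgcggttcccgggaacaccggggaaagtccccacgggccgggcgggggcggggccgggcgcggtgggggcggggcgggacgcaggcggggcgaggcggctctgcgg
Stat2: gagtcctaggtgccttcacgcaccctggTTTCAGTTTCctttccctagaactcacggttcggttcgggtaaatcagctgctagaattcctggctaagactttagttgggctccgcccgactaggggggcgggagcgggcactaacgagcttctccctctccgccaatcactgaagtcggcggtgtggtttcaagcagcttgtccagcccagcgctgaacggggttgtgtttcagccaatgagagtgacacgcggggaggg
5 patterns of letters were searched on both strands of the full 300-base windows, which go on to 50 bases after the start: the AP-1 site TGANTCA, the ISRE GAAA-(2 bases)-GAAA, the GAS TTCNNNGAA, and the AP-1/IRF composites GAAA directly before TGANTCA and TTTC 4 bases before TGANTCA, both of which contain the AP-1 site. The 9 genes had 10 windows, since Irf9 has 2. The GAS letters stood in the windows of Ifnar2, starting at position -214, and of Ifnar1, starting at position -5, counted from the transcription start, and 8.3% of all 32851 promoter windows hold them. The ISRE letters stood in the window of Stat2, on the minus strand at position -222, against 3.44% of all windows. The AP-1 letters, which 7.81% of all windows hold, and the composites, which 0.125% and 0.119% hold, were in 0 of the 10 windows. A match is a run of letters and not a shown binding site.

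The libraries held 19004726 and 21835962 fragments in BATF and 24795707 and 20354627 in MIG, and 12871 to 13227 genes reached 10 fragments per library. Batf itself stood at 1342 and 934 CPM in BATF and at 36.1 and 26.5 CPM in MIG, where CPM is the count relative to the library total after TMM scaling (edgeR's trimmed mean of log ratios), and passed the test (log2 fold change 5.18, adjusted p = 0.00188 by edgeR). The vector's copy and the cells' own gene were not separated. The CD8 T cell markers Cd8a, Cd8b1, Cd3d, Cd3e, Cd3g, Cd247 and Lck were all detected and summed to 2972 and 3209 CPM in BATF and to 3596 and 3535 CPM in MIG. Markers of CD4 T cells (3 genes) summed to at most 4.05 CPM in any library and those of B cells (4 genes) to at most 17.9 CPM, most of it Cd79b, with Ms4a1, Cd79a and Pax5 under 1 CPM. Of 7 myeloid and dendritic cell markers 5 were under 1 CPM everywhere, and the sum was 43.4 and 35.3 CPM in BATF and 27.0 and 26.3 CPM in MIG, most of it Itgax. Of the NK cell markers, Ncr1 and Klrb1c were under 1 CPM and Nkg7, which CD8 T cells also express, made up the sum of 306 to 361 CPM. The part of these markers in the results below was not tested. The replicates of MIG differed more from each other than those of BATF, with a chi-square per gene of 9.49 between the BATF libraries and 17.7 between the MIG libraries.

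No interferon receptor or transducer gene passed the test across all genes, while 5 of the 9 (Ifngr2, Ifnar1, Irf9, Jak1 and Ifnar2) were lower with BATF at an unadjusted p under 0.05 and 0 were higher. The edgeR quasi-likelihood test, with p-values adjusted after Benjamini and Hochberg and a threshold of 0.05, called 142 of 13008 genes, 1.09%, of which 115 (0.884%) rose and 27 (0.208%) fell. At an unadjusted p under 0.05, 4.09% of all tested genes were lower and 6.69% higher. DESeq2 called Ifngr2 and Ifnar1 lower, against 0.729% of its genes called lower, and limma-voom called 0 of the 9, against 0.192% of genes called lower. Of the 9 log2 fold changes, BATF over MIG, 8 were below 0, against 6698 of 13008 over all tested genes. Their median was -0.29, against -0.01 over all tested genes. The groups did not overlap in CPM in 5 of the 9 genes, all lower in BATF. By the same measure 19.4% of tested genes were lower without overlap and 19.2% were higher. In FPKM Jak2 was lower without overlap as well, but the share of all genes was not counted on that scale. In these bulk libraries a smaller share of cells with a transcript and less of it per cell cannot be told apart.

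Ifngr2, the signalling chain of the interferon gamma receptor, showed the largest difference of the 9. It stood at 8.86 and 10.5 CPM in BATF, on 168 and 228 fragments, and at 17.4 and 27.2 CPM in MIG, on 427 and 560 fragments. Both BATF libraries lay below both MIG libraries, and the MIG libraries were themselves far apart. The log2 fold change was -1.20 ± 0.23 (SE), a ratio of 0.435, with a 95% interval of -1.75 to -0.65 and an adjusted p of 0.0805 by edgeR. Ifngr2 did not pass in edgeR with RLE scaling (adjusted p = 0.077 by edgeR) or upper-quartile scaling (0.0898), nor in limma-voom (0.12). Limma on log2 FPKM did not call it with a pseudocount of 1 (adjusted p = 0.109 by limma) or 0.1 (0.1). With a pseudocount of 1 and no filter, limma gave an adjusted p of 0.343. DESeq2 gave an adjusted p of 7.67e-05, and edgeR without a filter on low counts gave 0.00376 in a fit that called 0.364% of genes lower. Ifngr2 also passed in each edgeR fit with 1 library left out, at a log2 fold change of -1.49 without MIG replicate 1 (adjusted p = 0.00629 by edgeR), -0.86 when MIG replicate 2 was left out (0.0163), -1.09 when BATF replicate 1 was (0.0164) and -1.33 when BATF replicate 2 was (0.0172). In those 4 fits, taken in the same order, 0.393%, 1.95%, 0.487% and 0.404% of all genes were called lower, and a group left with a single library borrows its spread from the other group.

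Ifngr1, the ligand-binding chain that pairs with it, stood at 334 and 305 CPM in BATF and at 345 and 301 CPM in MIG. The groups overlapped, and the log2 fold change was -0.01 with a 95% interval of -0.25 to 0.22. Compared per length in the deposited FPKM, Ifngr2 was the scarcer chain in every library. Its ratio to Ifngr1 was 0.0269 and 0.0349 in BATF and 0.0514 and 0.0917 in MIG. Put the other way, there were 37.2 and 28.7 FPKM of Ifngr1 for each FPKM of Ifngr2 in BATF, against 19.4 and 10.9 in MIG, with no overlap between the groups. A ratio within a library does not depend on library scaling, and it is given as a description with no test. An exact two-sided permutation of 2 libraries against 2 could not give a p below 0.333.

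**Figure D1:**
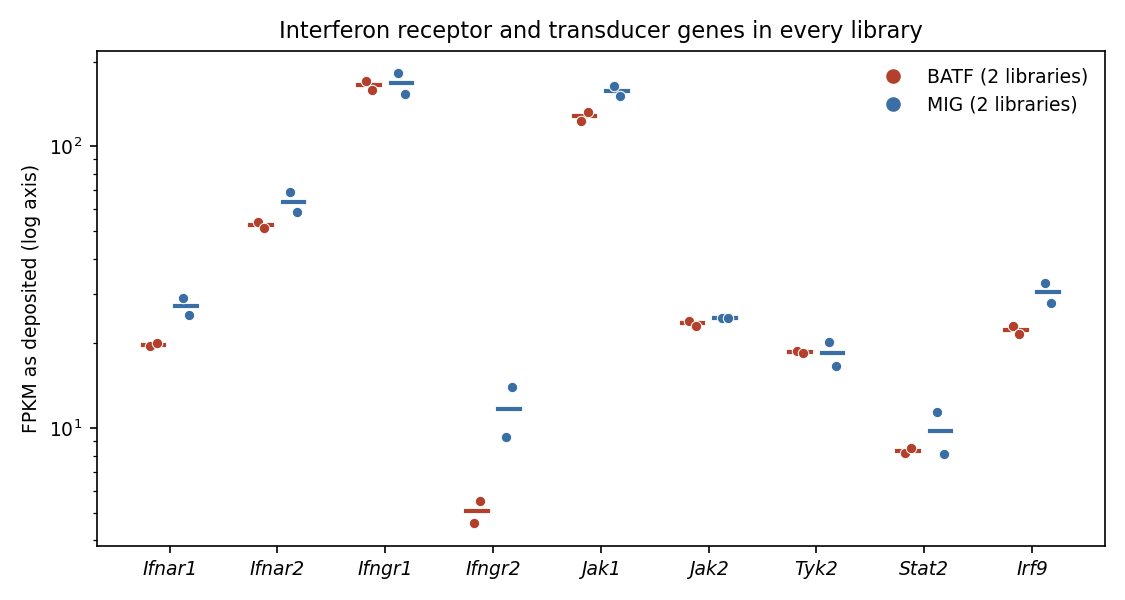
Deposited FPKM (log axis) of the 9 genes in each library, with BATF in red and MIG in blue, points for libraries and bars for group means. Ifngr2 has the lowest BATF mean (5.07 FPKM, against 11.7 in MIG), while Ifngr1 is at the top in both groups and overlaps between them.

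Ifnar1, the type I receptor chain that carries TYK2, stood at 138 CPM in both BATF libraries (137.5 and 138.3) and at 197 and 178 CPM in MIG. The BATF libraries were nearly equal and both below MIG, with a log2 fold change of -0.45 ± 0.09 (SE), a ratio of 0.734 and an adjusted p of 0.0814 by edgeR. It passed in DESeq2 (adjusted p = 0.022), in edgeR with no filter (0.0355) and without MIG replicate 2 (0.00213), and did not pass without BATF replicate 1 (0.327 by edgeR), BATF replicate 2 (0.306) or MIG replicate 1 (0.0772).

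Ifnar2, the chain that carries JAK1, stood at 91.5 and 87.2 CPM in BATF and at 122 and 104 CPM in MIG. The groups did not overlap, and the log2 fold change was -0.34 ± 0.10 (SE) with an adjusted p of 0.236 by edgeR, which passed without MIG replicate 2 (-0.46, adjusted p = 0.00883 by edgeR). The ratio of Ifnar1 to Ifnar2 in FPKM was 0.363 and 0.390 in BATF and 0.420 and 0.432 in MIG, without overlap. That of their fragments, which no transcript length enters, was 1.503 and 1.585 in BATF and 1.614 and 1.709 in MIG, also without overlap but with BATF replicate 2 close to MIG replicate 1.

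Ifnar2 was also the 1 gene of the 9 whose deposited FPKM and fragments did not keep a fixed ratio across libraries. Scaled fragments divided by FPKM follow the transcript length that Cuffdiff used, which moves when fragments are assigned to transcripts of other lengths. As a percentage of its mean over the 4 libraries, this length stood at 96.5% and 98.4% in BATF and at 104% and 101% in MIG, so the BATF libraries were assigned a shorter mean transcript. In the other 8 genes it varied by at most 0.125 percentage points. Of 9111 genes with at least 100 fragments in each library, 9.2% had a range over 1 percentage point, and 37 genes (0.406%) had groups that did not overlap and a difference at least as large as that of Ifnar2. Mouse Ifnar2 is known to make a transmembrane and a soluble form from different transcripts. The gene-level table does not show which transcripts carried the fragments, and RefSeq lists 4 for this gene.

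Of the kinases, Jak1, which serves both interferon receptors and many cytokine receptors, stood at 648 and 683 CPM in BATF and at 833 and 799 CPM in MIG. Both BATF libraries were below both MIG libraries, by a log2 fold change of -0.29 ± 0.08 (SE), with an adjusted p of 0.196 by edgeR and 0.0299 without MIG replicate 2. Raver2 overlaps Jak1 in the RefSeq annotation and stood at 2.44 to 3.90 CPM.

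Jak2, the kinase on IFNGR2, stood at 120 and 114 CPM in BATF and at 120 and 124 CPM in MIG. The groups overlapped in CPM, and the 95% interval of the log2 fold change was -0.25 to 0.13. Tyk2, the kinase on IFNAR1, stood at 89.1 and 86.2 CPM in BATF and at 93.0 and 79.5 CPM in MIG. Its BATF libraries lay between its MIG libraries, with an interval of -0.22 to 0.26. Relative to Jak1 in FPKM, Jak2 was at 0.195 and 0.175 in BATF and at 0.151 and 0.163 in MIG, and Tyk2 at 0.152 and 0.140 in BATF and at 0.123 and 0.110 in MIG. Both ratios were higher in BATF with no overlap. Both divide by Jak1, which was lower in BATF, while Jak2 and Tyk2 themselves overlapped between the groups in CPM. In FPKM, the scale of the ratios, Tyk2 overlapped too. Jak2 was narrowly lower there, at 24.05 and 23.11 FPKM in BATF and 24.69 and 24.56 FPKM in MIG. The ratios were not tested.

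Irf9, the DNA-binding subunit of ISGF3, stood at 52.1 and 47.9 CPM in BATF and at 71.8 and 63.3 CPM in MIG. The groups did not overlap, with a log2 fold change of -0.44 ± 0.10 (SE), an adjusted p of 0.145 by edgeR, and 0.00802 without MIG replicate 2. Stat2, the subunit that gives ISGF3 its activating domain, stood at 35.2 and 36.1 CPM in BATF and at 47.7 and 35.2 CPM in MIG. Here MIG replicate 2 matched the BATF libraries and MIG replicate 1 stood above them. The log2 fold change of -0.22 had a 95% interval of -0.58 to 0.15, turned to 0.02 without MIG replicate 1 and was -0.43 without MIG replicate 2 (adjusted p = 0.0473 by edgeR). Apof, which overlaps Stat2 in RefSeq, was under 1 CPM.

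The FPKM ratio of Irf9 to Stat2, its partner in ISGF3, was 2.84 and 2.54 in BATF and 2.88 and 3.44 in MIG. Irf9 was the more abundant of the pair in every library, and the ratio was lower in BATF without overlap, by a narrow gap between BATF replicate 1 and MIG replicate 1.

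**Figure D2:**
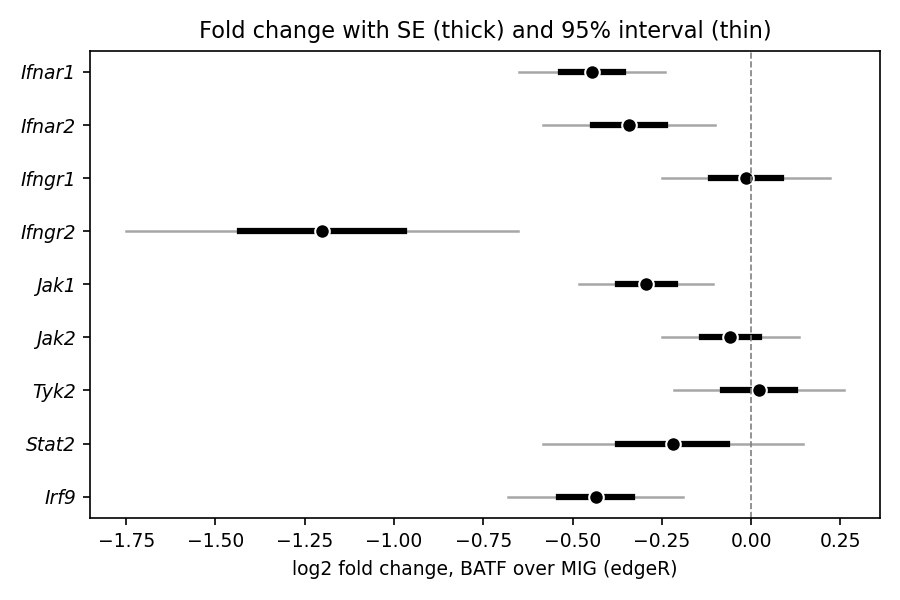
Log2 fold change of BATF over MIG from edgeR for the 9 genes, with points for estimates, thick lines for 1 SE and thin lines for 95% intervals. The intervals of Ifnar1, Ifnar2, Ifngr2, Jak1 and Irf9 lie below 0 before adjustment, and those of Ifngr1, Jak2, Tyk2 and Stat2 contain 0.

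**Figure D3:**
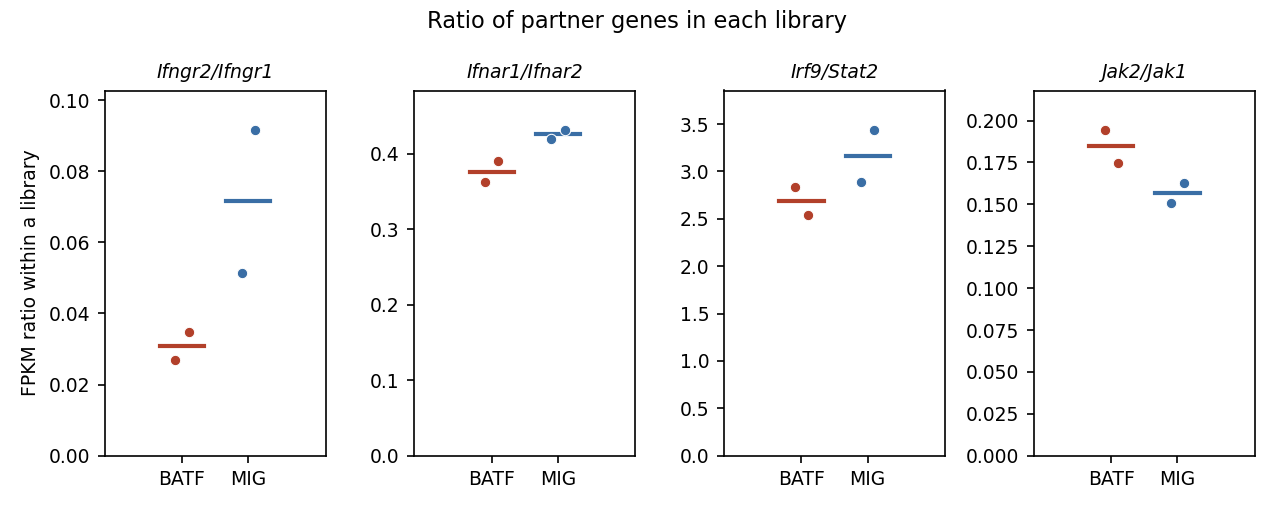
FPKM ratio of partner genes within each library, with points for libraries and bars for means, BATF left of MIG and axes from 0. The ratios of Ifngr2 to Ifngr1, Ifnar1 to Ifnar2 and Irf9 to Stat2 are lower in both BATF libraries, and that of Jak2 to Jak1 is higher.

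Ordered by mean FPKM, the genes ran Ifngr1 (165), Jak1 (128), Ifnar2 (52.7), Jak2 (23.6), Irf9 (22.3), Ifnar1 (19.8), Tyk2 (18.6), Stat2 (8.33) and Ifngr2 (5.07 FPKM) in BATF, where no neighbours in the order had overlapping libraries. In MIG they ran Ifngr1 (167), Jak1 (157), Ifnar2 (63.7), Irf9 (30.3), Ifnar1 (27.1), Jak2 (24.6), Tyk2 (18.4), Ifngr2 (11.7) and Stat2 (9.74 FPKM), and the pairs Ifngr1 and Jak1, Irf9 and Ifnar1, and Ifngr2 and Stat2 overlapped. The first 3 places were the same in both groups. Irf9 and Ifnar1 stood above Jak2 in MIG and below it in BATF.

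The genes of the receptor cluster on chromosome 16 and those listed beyond it were read in their order along the chromosome. The list starts at Ifnar2, so genes before it were not read. A run of 5 listed genes, Ifnar2, Il10rb, Ifnar1, Ifngr2 and Tmem50b, was lower in BATF with no overlap between the groups, and Tmem50b, a small membrane protein gene next to Ifngr2, passed the test. Tmem50b fell to 28.2 and 24.6 CPM in BATF, against 45.8 and 42.7 CPM in MIG (log2 fold change -0.75, SE 0.12, with an adjusted p of 0.0406 by edgeR), and this call was lost without BATF replicate 2 (adjusted p = 0.136 by edgeR) and in the 3 limma fits on log2 FPKM (adjusted p from 0.0726 to 0.241). Il10rb, the chain shared by the receptors for IL-10 and lambda interferon, stood at 55.6 and 59.6 CPM in BATF and at 77.4 and 79.5 CPM in MIG (log2 fold change -0.45, adjusted p = 0.0853 by edgeR). Beyond Tmem50b, Dnajc28, Gart and Son had log2 fold changes of -0.04, -0.15 and 0.00 with 95% intervals that contain 0. Farther on, Donson, a replication gene, was at -0.28 with an unadjusted p of 0.0165, while Cryzl1 and Itsn1 were higher, at 0.46 and 0.49 with unadjusted p of 0.0162 and 0.0135. Of the 11 listed genes, all tested, 6 were lower and 2 were higher with p under 0.05 before adjustment, against 4.09% and 6.69% of all tested genes. The 6 include Ifnar2, Ifnar1 and Ifngr2, already counted among the 9 genes, besides Il10rb, Tmem50b and Donson. By overlap alone, 7 were lower without it, Gart and Donson among them, and 2 higher, against 19.4% and 19.2% of all tested genes.

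**Figure D4:**
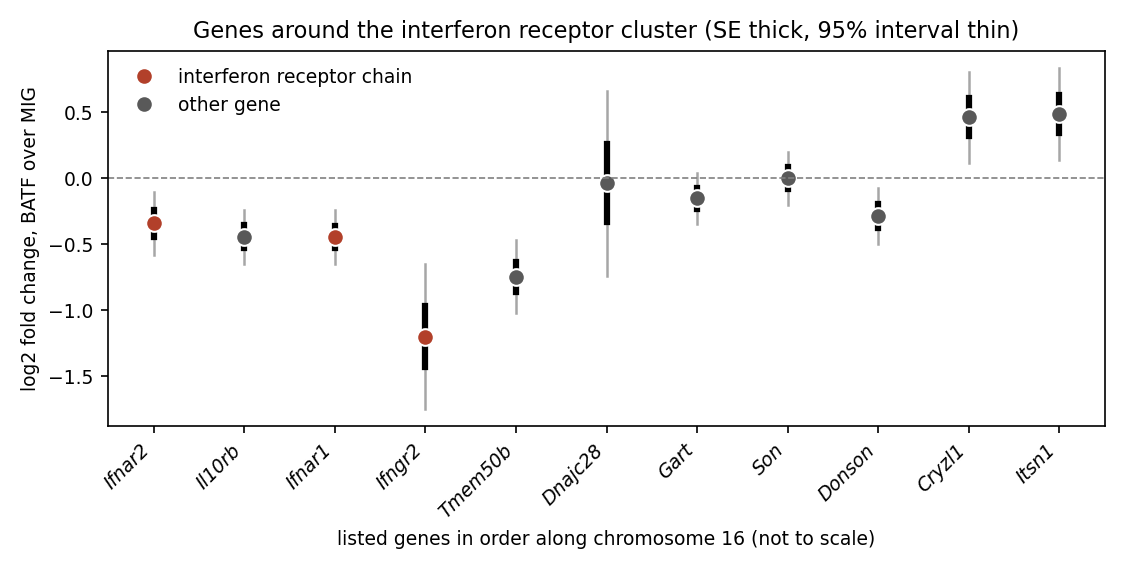
Log2 fold change of BATF over MIG for 11 listed genes in their order along chromosome 16 (spacing not to scale), with interferon receptor chains in red, SE as thick and 95% intervals as thin lines. The 5 genes from Ifnar2 to Tmem50b have intervals below 0, and Dnajc28, Gart and Son have intervals that contain 0.

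Transcripts of interferon ligands were near or below detection in these libraries, and ligand protein in the cultures was not measured. Ifng, which encodes interferon gamma, had 35 and 35 fragments in BATF and 80 and 50 in MIG, or 1.84 and 1.61 CPM against 3.27 and 2.43 CPM (log2 fold change -0.73, adjusted p = 0.40 by edgeR). The other 18 ligand genes listed, of type I and lambda interferon, had 0 to 10 fragments in a library and were not tested. Together with the other class II cytokine receptor chains, 5 of 26 genes were tested, edgeR and limma-voom called 0 and DESeq2 called 1 lower. Over all genes DESeq2 called 0.729% lower. Ifng and Il10rb were the 2 genes lower at an unadjusted p under 0.05 by edgeR, with 0 higher. Of all tested genes, 4.09% were lower and 6.69% higher at that threshold.

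Of 14 other JAK, STAT and IRF family genes tested, edgeR and limma-voom called 0 and DESeq2 called 1 lower and 1 higher. Before adjustment edgeR had 3 lower and 1 higher with p under 0.05, against 4.09% and 6.69% of all tested genes. The 14 genes had a median log2 fold change of -0.03, against -0.01 over all tested genes. The lowest unadjusted p was that of Stat4, the transducer of IL-12, which stood at 137 ± 5.90 CPM in BATF and 182 ± 4.17 CPM in MIG (SD, n = 2 each; log2 fold change -0.41, adjusted p = 0.0881 by edgeR). Irf5, an interferon regulatory factor known mainly from myeloid and B cells, stood next at 10.7 ± 1.46 CPM in BATF and 5.54 ± 1.11 CPM in MIG (SD, n = 2 each; log2 fold change 0.94, adjusted p = 0.111 by edgeR). Of 16 brakes of the pathway tested, edgeR and limma-voom again called 0 and DESeq2 called 2 lower and 1 higher. Over all 12619 genes with an adjusted p, DESeq2 called 92 lower and 253 higher. Before adjustment edgeR had 4 lower and 1 higher with p under 0.05, against the same 4.09% and 6.69%, and the median of the brakes was -0.06. Sh2b3, an adaptor that restrains JAK2 signalling, stood at 20.8 ± 7.01 CPM in BATF and 49.8 ± 4.74 CPM in MIG (SD, n = 2 each; log2 fold change -1.25, adjusted p = 0.059 by edgeR). Socs2, a suppressor of cytokine signalling, was at 70.9 ± 3.02 CPM in BATF and 50.3 ± 6.24 CPM in MIG (SD, n = 2 each; adjusted p = 0.123 by edgeR).

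Downstream, 4 of 21 tested interferon gamma targets fell and 0 rose, against 0.208% of all genes called lower, and all 4 encode interferon-inducible GTPases. Ifi47 averaged 156 ± 5.59 CPM in BATF and 234 ± 9.27 CPM in MIG, Igtp 199 ± 2.04 CPM in BATF and 294 ± 11.4 CPM in MIG, Irgm1 78.7 ± 4.93 CPM in BATF and 119 ± 5.22 CPM in MIG, and Iigp1 6.27 ± 2.24 CPM in BATF and 18.8 ± 2.03 CPM in MIG (SD, n = 2 each; adjusted p from 0.0279 to 0.0406 by edgeR). Limma on log2 FPKM called 0 genes of this list in each fit. Over all genes it called 4 lower with a pseudocount of 1, 10 with 0.1, and 0 with a pseudocount of 1 and no filter. Without BATF replicate 2 the adjusted p by edgeR was 0.132 for Ifi47, 0.115 for Igtp and 0.138 for Irgm1, and without BATF replicate 1 it was 0.101 for Igtp. Before adjustment 10 of the 21 were lower and 1 higher with p under 0.05, against 4.09% and 6.69% of all tested genes. The one that was higher, Gbp6, is also an interferon-inducible GTPase gene, at a log2 fold change of 0.24 (adjusted p = 0.347 by edgeR), and its relatives Gbp4 and Gbp3 were at 0.16 and 0.02 (adjusted p = 0.619 and 0.995 by edgeR). Of the same family, Gbp2 and Gbp7 were lower in BATF, at -0.55 and -0.33 (adjusted p = 0.17 and 0.242 by edgeR). These Gbp genes were named after their values were seen. Of 26 tested type I interferon-stimulated genes, 25 were below 0 on the log2 scale, against 6698 of 13008 over all tested genes. The median of the 26 was -0.43. EdgeR called 0 of them, and 14 were lower and 0 higher with p under 0.05 before adjustment, against 4.09% and 6.69% of all tested genes. DESeq2 called 4 lower, against 0.729% of its genes, and limma-voom called 0. The lowest p-values were those of Zbp1, a nucleic acid sensor, at 34.6 ± 1.06 CPM in BATF and 53.0 ± 5.77 CPM in MIG, and Trim30a at 67.0 ± 2.23 CPM in BATF and 90.0 ± 0.869 CPM in MIG (SD, n = 2 each; adjusted p = 0.0687 and 0.0809 by edgeR). That these lists are mostly lower was known from earlier results of the same libraries and is not independent of them.

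Other chains of cytokine receptors that signal through JAK1, JAK2 or TYK2 had no common direction. Of 16 tested, 8 log2 fold changes were negative and 8 positive, with a median of -0.06. Before adjustment 3 were lower and 2 higher with p under 0.05 by edgeR, against 4.09% and 6.69% of all tested genes. EdgeR called 1 of the 16 lower, against 0.208% of all tested genes called lower and 0.884% called higher. Il6ra, the IL-6 receptor chain, fell to 2.31 ± 0.537 CPM in BATF, against 6.99 ± 1.10 CPM in MIG (SD, n = 2 each; adjusted p = 0.0406 by edgeR), and 0 rose. Its call was lost without MIG replicate 1 (adjusted p = 0.0653 by edgeR) in limma-voom (0.0532) and in the 3 limma fits on log2 FPKM (0.115 to 0.301). Il2rg, the common gamma chain, had 451 ± 26.5 CPM in BATF and 565 ± 9.20 CPM in MIG (SD, n = 2 each; adjusted p = 0.164 by edgeR).

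The genes whose values over the 4 libraries lay nearest to those of Ifngr2, by Euclidean distance between centred log2 CPM values, were Qser1, Ceacam-ps1, Ntrk3, Rtp4 and Cx3cr1, at distances of 0.0784 to 0.183. Of these, Qser1 stood at 6.80 and 8.13 CPM in BATF and at 13.8 and 19.9 CPM in MIG, and Rtp4, 1 of the type I interferon-stimulated genes listed, at 4.75 and 6.71 CPM in BATF and at 10.3 and 15.8 CPM in MIG. With 4 libraries such a ranking only describes.

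**Figure D5:**
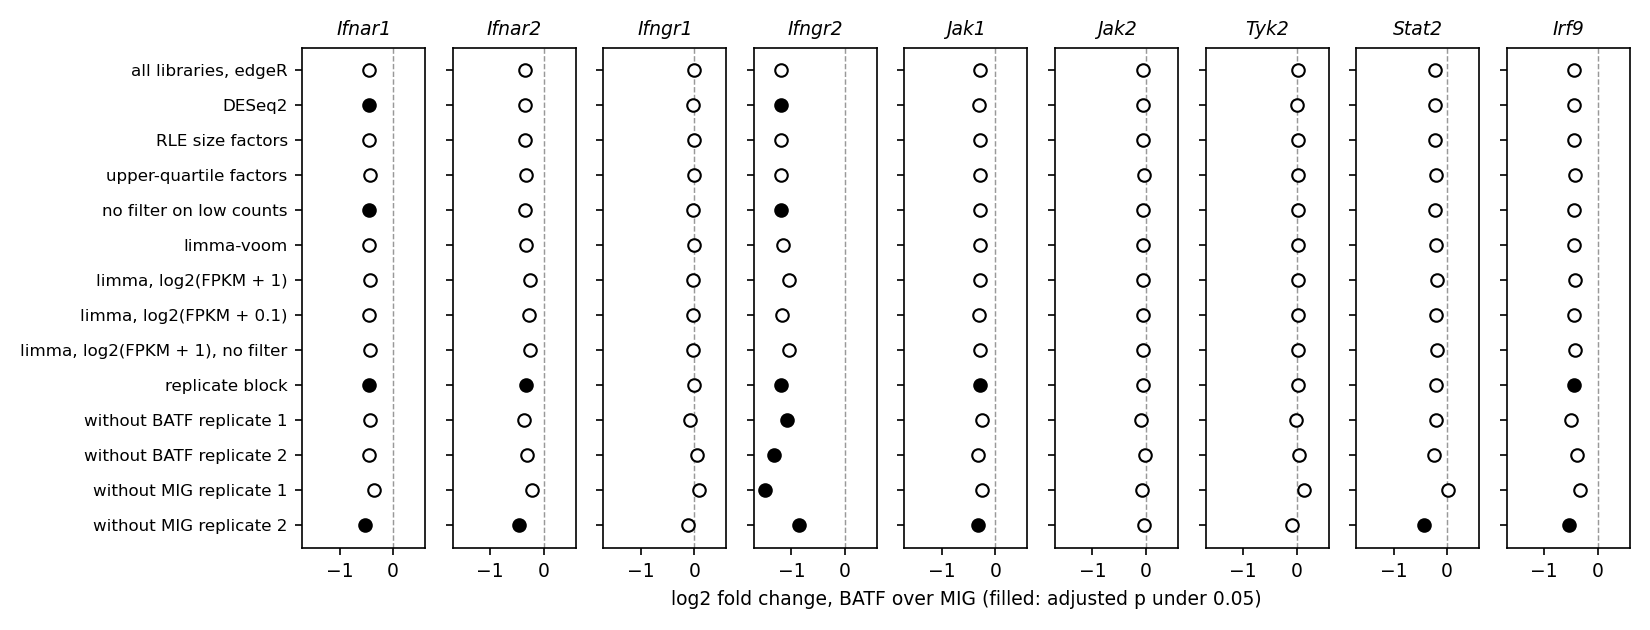
Log2 fold change of BATF over MIG for each of the 9 genes under edgeR with all libraries and 13 alternatives, filled where the adjusted p is under 0.05. Ifngr2 is below 0 throughout and filled in 7 alternatives, and Ifnar1, Ifnar2, Jak1 and Irf9 are below 0 throughout and filled in 4, 2, 2 and 2.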

How the data were processed

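RNA was sequenced in 4 libraries, grouped by their titles. Per the submitters' processing notes, TopHat2 2.1.1, Cufflinks 2.2.2 and Cuffdiff were used with mm9. With annotation and strand setting not given in the sources used here, antisense fragments cannot be told apart. The deposited Cuffdiff table gives estimated counts of fragments per gene and library before scaling, a scaled fragment signal and FPKM, per the file headers; 97.6% of the estimated counts were whole. The table numbers replicates 0 and 1 within each group; they are called replicates 1 and 2 here, and which titled sample each one is was not settled. Estimated counts were rounded and tested with edgeR 4.0.16 in R 4.3.3 (filterByExpr, TMM factors 0.989 to 1.01, quasi-likelihood test, no covariate, Benjamini-Hochberg over 13008 genes). The biological coefficient of variation was 11.2%. Standard errors are the coefficient over the root of F. DESeq2 1.42.0, limma 3.58.1 (voom, and log2 FPKM with pseudocounts of 1 and 0.1 and a minimum mean of 1 FPKM), other scalings, no filter, a replicate block and leaving out each library were alternatives. The rule for named genes took the 9 members, Batf, Ifng, Il10rb, the listed chromosome neighbours, and in each of 6 pathway lists the called genes and the 2 with the lowest p, plus the 5 genes nearest in pattern to the member with the lowest p. Members and lists were chosen with earlier results of these data known. Protein sequences were not used here, and a pathway gene and a B cell marker, left out of their lists, are not reported.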

Additional observations from a re-analysis of the deposited data

How the results depend on the processing

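EdgeR's 142 calls over all genes (115 higher, 27 lower) became 345 (253 higher, 92 lower) in DESeq2, 349 (266 and 83) with low counts unfiltered, 36 (32 and 4) with limma on log2(FPKM + 1), 49 (39 and 10) with a pseudocount of 0.1, 3 (3 and 0) with limma and no filter, and 248 to 589 (192 to 320 higher, 55 to 269 lower) with 1 library left out. The 0 calls among the 9 interferon receptor and transducer genes became 2 in DESeq2, 2 with no filter and 1 to 6 with a library left out, and their 5 genes lower at an unadjusted p under 0.05 became 3 to 6 with a library left out. Without MIG replicate 2, 6 of the 9 were called lower, the highest number. Of 117 log2 fold changes of the 9 genes under 13 alternatives, 94 kept direction and side of the threshold, 18 kept direction and passed, and 5 turned sign: with a library left out Ifngr1 ranged from -0.115 to 0.09 (0.049 without BATF replicate 2), Tyk2 from -0.093 to 0.144 (-0.001 without BATF replicate 1) and Stat2 from -0.427 to 0.023, turning without MIG replicate 1 for Ifngr1 and Stat2 and without MIG replicate 2 for Tyk2. The cause was not tested. Under RLE and upper-quartile scaling the direction and call of all 9 genes were as with TMM.

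Called genes per list, in the order ligands and class II receptors, JAK, STAT and IRF genes, brakes, type I interferon-stimulated genes, interferon gamma targets and other receptor chains, were 0, 0, 0, 0, 4 and 1 with edgeR. They were 1, 2, 3, 4, 5 and 1 in DESeq2 and 0, 1, 2, 3, 5 and 1 with no filter. Limma-voom called 0 of the other receptor chains, and each limma fit on log2 FPKM called 0 interferon gamma targets and 0 other receptor chains. With a library left out the ranges were 0 to 1, 0 to 2, 1 to 4, 1 to 6, 1 to 10 and 0 to 2.

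With the replicate block, edgeR called 1504 genes (916 higher, 588 lower), 5 of the 9 interferon genes and 2, 6, 5, 15, 11 and 4 of the lists in the same order. Deviations of same-numbered libraries correlated at 0.181 across genes, but with 2 numbers this does not show that the numbers pair the libraries, and the block leaves 1 residual degree of freedom. Ifngr2 rests on 168 to 560 fragments per library, the fewest of the 9 genes.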

Other observations

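Within the span of the receptor cluster and its listed neighbours on chromosome 16, 13 genes were tested in all, 10 with a negative log2 fold change, against 6698 of 13008 over all genes. At an unadjusted p under 0.05, 7 were lower and 2 higher, against 4.09% and 6.69% of all tested genes. The 7 again include Ifnar2, Ifnar1 and Ifngr2. The 2 tested genes not on the list, chosen after their values were seen, were A930006K02Rik, which stands between Il10rb and Ifnar1 in the RefSeq order, with a log2 fold change of -0.75 (adjusted p = 0.456 by edgeR), and Gm10785, with 0.45 (adjusted p = 0.781 by edgeR).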
